A study of Homo sapiens with 3 samples.

Results

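The genes described here encode 10 splicing factors that recognise the branch point and the 3′ splice site of an intron. They are SF3A1, SF3A2 and SF3A3 of the SF3a complex, SF3B1, SF3B2 and SF3B3 of the SF3b complex, and SF1, U2AF2, U2AF1 and PUF60. They were taken by gene name from the deposited count tables, which hold 58735 genes in all, and each name matched 1 gene. The cells were A549, a long-established line from a human lung adenocarcinoma, and the 3 RNA-seq libraries were 1 control (Control-sh) and 1 for each of 2 short hairpin RNAs against DDX24, a DEAD-box RNA helicase (DDX24-sh1 and DDX24-sh2). Per the study's methods all lines were stable, made with lentiviral pLKO.1 vectors and grown under puromycin, the control line included. The methods name the empty vector as the control, whereas the study also writes of a control shRNA, and the label says only that the library is a control. Whether each line was a clone or a pool was not given in the sources used here. With 1 library per condition there was no replicate check and no test, and every interval given here is the exact 95% interval of a ratio of 2 counts, which covers counting error only.

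Introns are removed by the spliceosome, a set of RNA-protein particles that assemble on each intron anew. SF1 first binds the branch point sequence, while U2AF2 binds the polypyrimidine tract and U2AF1 the AG dinucleotide at the 3′ splice site. The U2 small nuclear ribonucleoprotein (snRNP) then replaces SF1, and its SF3a and SF3b complexes hold it on the branch point. SF3B1 and U2AF1 are recurrently mutated in myeloid neoplasms, and SF3b is the target of splicing inhibitors such as pladienolide B. DDX24 has been studied as a splicing factor in lung cancer cells, and these libraries allow the mRNA levels of the branch point and 3′ splice site machinery to be set side by side in cells with less DDX24 mRNA.

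DDX24 itself had 637 and 765 counts under the shRNAs where the control had 2010, or 29.6% and 36.1% of the control level after TMM scaling of the library sizes. Values in pairs are for DDX24-sh1 first and DDX24-sh2 next, and triplets open with the control. The libraries held 17218884 to 18337471 counts. Of the 9 markers of A549 and epithelial cells, all had counts in each library, EPCAM at only 29 to 32, and their summed counts were 290756 to 321875. Members of that sum moved apart, CDH1 with 31.5, 19.6 and 14.5 CPM (counts scaled to a common library total) and KRT19 with 58.7, 123.1 and 151.1 CPM in the control, DDX24-sh1 and DDX24-sh2, and their part in the ratios was not tested. The leukocyte markers PTPRC and CD3E were at 0 in each library and CD14 was at 75 to 139, while the 3 endothelial markers summed to 9 to 14 counts and the 3 fibroblast markers to 152 to 190. In bulk RNA, fewer cells of a type and less RNA per cell cannot be told apart. Mitochondrial genes took 4.36% of the control's counts and 5.13% and 7.04% of those of the shRNA libraries, and their part in any ratio was not tested. In the deposited FPKM values the labels of the shRNA libraries are exchanged relative to the counts, and which of the labellings is right is not known. The names DDX24-sh1 and DDX24-sh2 follow the count tables throughout, so a statement that sets the shRNA libraries apart rests on those labels, whereas one on both does not.

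U2AF1 gave the largest ratio among the 10 genes, and its counts cannot be read on their own. U2AF1, the small U2AF subunit, is annotated at 21:43092956-43107587 (GRCh38, minus strand), and its copy U2AF1L5 at 21:6484623-6499261 on the same strand. The first annotated transcript of U2AF1 (U2AF1-201, 962 bases) matched that of U2AF1L5 (897 bases) at 897 of 897 aligned bases. The coding sequences of 240 codons, the stop codon left out, were identical. To show how little separates the copies, the 134 bases of coding exon 6 follow, read 5′ to 3′ on the minus strand from the GENCODE 29 transcripts. The same letters stand at chr21:43094655-43094788 in U2AF1 and at chr21:6486322-6486455 in U2AF1L5.
exon 6 of U2AF1-201 and U2AF1L5-201: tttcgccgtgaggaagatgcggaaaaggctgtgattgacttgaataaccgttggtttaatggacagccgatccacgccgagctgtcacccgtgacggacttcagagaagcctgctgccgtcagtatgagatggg

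Single-base differences between the copies were found in other annotated transcripts. Between U2AF1-204 and U2AF1L5-204, each 1675 bases long, 1673 bases were identical and the substitutions were C144T and G463C, with the U2AF1 base first and positions counted from 1 at the 5′ end of the transcript. In U2AF1 both positions lie between exons 1 and 2 of U2AF1-201, in its first intron. U2AF1-203 and its counterpart U2AF1L5-212 differed by A20C over 1019 bases. Whether the cells carry U2AF1L5 as a locus apart from U2AF1 was not tested, so these bases separate annotated sequences only. The 25-base windows at C144T and G463C are shown with the base that differs in capitals.
U2AF1 at C144T, chr21:43105097-43105121: ctaaggtgggttCggtcagtcccct
U2AF1L5 at C144T, chr21:6496775-6496799: ctaaggtgggttTggtcagtcccct
U2AF1 at G463C, chr21:43104778-43104802: caccacaccggtGttttcaagagag
U2AF1L5 at G463C, chr21:6496456-6496480: caccacaccggtCttttcaagagag

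Of all 100-base stretches in annotated U2AF1 transcripts, 89.4% (10557 of 11807) were also found in U2AF1L5, and of the 50-base stretches 94.3%. For the other 9 genes and for DDX24 no 100-base stretch occurred in another annotated gene. At 50 bases the share was 3.79% for SF3A3, which has pseudogenes such as SF3A3P1, and at most 0.827% for the others. How the counting placed a read that fits both U2AF1 and U2AF1L5 was not given in the sources used here.

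U2AF1 (ENSG00000160201) was counted 21 times in the control library, 165 times in DDX24-sh1 and 35 times in DDX24-sh2. DDX24-sh1 stood apart from the other libraries, at a log2 ratio to control of 2.77 (interval 2.21 to 3.60), or 6.80-fold, while DDX24-sh2 was at 0.61 (−0.16 to 1.51). U2AF1L5 (ENSG00000275895) showed the opposite order, at 202 counts in the control against 55 for DDX24-sh1 and 104 for DDX24-sh2. Its log2 ratios were −1.94 (−2.43 to −1.54) in DDX24-sh1 and −1.02 (−1.39 to −0.69) in DDX24-sh2.

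Summed over both copies, the control had 223 counts, DDX24-sh1 220 and DDX24-sh2 139. The difference of DDX24-sh1 from control was no longer there in the sum, at a log2 ratio of −0.12 (−0.39 to 0.16). DDX24-sh2 was the low library of the sum, at −0.75 (−1.08 to −0.45), or 59.3% of control, and at −0.64 (−0.96 to −0.33) against DDX24-sh1. U2AF1 took 9.42% of the sum in the control (exact binomial interval 5.92 to 14.0), 75% in DDX24-sh1 (68.7 to 80.6) and 25.2% in DDX24-sh2 (18.2 to 33.2). The intervals of these shares did not overlap between any of the libraries, so the way reads were divided over the copies differed beyond counting error. Whether the lower sum in DDX24-sh2 reflects less U2AF1 mRNA or reads that were placed on neither copy cannot be told apart from these counts.

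**Figure D1:**
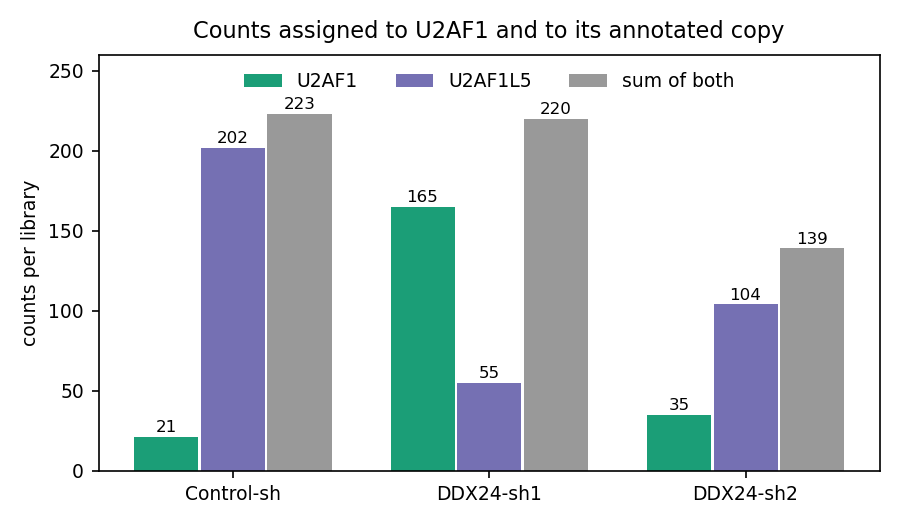
Counts per library assigned to U2AF1, to its annotated copy U2AF1L5 and to both together, as bars from 0 for Control-sh, DDX24-sh1 and DDX24-sh2 (1 library each). U2AF1 is highest in DDX24-sh1 with 165 counts where U2AF1L5 is lowest with 55, and the sum is 223, 220 and 139.

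Among the SF3b genes, SF3B1, SF3B2 and SF3B3 were each lower in both shRNA libraries than in the control, at 74.3 to 90.8% of its level. SF3B1 (ENSG00000115524, 2:197389784-197435091, minus strand), the scaffold that encloses the branch point adenosine, had 5855 counts in the control, against 5257 for DDX24-sh1 and 5202 for DDX24-sh2. Its log2 ratios were nearly equal, −0.26 (−0.31 to −0.20) in DDX24-sh1 and −0.25 (−0.31 to −0.20) in DDX24-sh2. The control was the high library, and the shRNA libraries differed by only 0.0039 (−0.052 to 0.060).

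SF3B3 (ENSG00000189091, 16:70523788-70577670, plus strand), a propeller protein that supports SF3B1, reached 4247 counts in the control library, 3381 in the DDX24-sh1 library and 3681 in the DDX24-sh2 library. It was the lowest of the 3 in each shRNA library, at 74.3% of control in DDX24-sh1 (log2 ratio −0.43, −0.49 to −0.36) and 82.0% in DDX24-sh2 (−0.29, −0.35 to −0.22). DDX24-sh2 lay above DDX24-sh1 by 0.14 (0.074 to 0.21).

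SF3B2 (ENSG00000087365, 11:66050729-66069308, plus strand), which contacts the intron near the branch point, was counted 4204 times in the control library, 4092 times in DDX24-sh1 and 3928 times in DDX24-sh2. Its log2 ratios were the smallest of the 3, at −0.14 (−0.20 to −0.076) and −0.18 (−0.24 to −0.12), and the shRNA libraries did not differ beyond counting error (−0.040, −0.10 to 0.024).

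The smaller SF3b subunits did not share the lower level throughout. SF3B4, an RNA-binding subunit, had 1736 counts in the control, against 2003 for DDX24-sh1 and 1842 for DDX24-sh2, for log2 ratios of 0.11 (0.013 to 0.20) and 0.0048 (−0.091 to 0.10). SF3B5, SF3B6, which touches the branch point, and PHF5A, which with SF3B1 forms the pocket of the inhibitors, had log2 ratios between −0.18 and 0.0034, and of these 6 ratios only that of SF3B6 in DDX24-sh2 had an interval below 0 (−0.14, −0.27 to −0.014). Over the 7 subunits of SF3b the median log2 ratio was −0.14 for DDX24-sh1 and −0.15 for DDX24-sh2, beside −0.021 and −0.026 over the 13984 genes that averaged 1 CPM or more. Sizes are counted here from a log2 ratio of 0.32, up or down. None of the 7 passed it upwards in either library, where 17.2% and 17.7% of all genes did. Only SF3B3 passed it downwards, in DDX24-sh1, where 20.4% of all genes did, against 21.3% in DDX24-sh2.

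The 3 SF3a genes differed from one another. SF3A2 (ENSG00000104897, 19:2236504-2248679, plus strand), a zinc finger subunit of the U2 snRNP, reached 650 counts in the control library, 447 in the DDX24-sh1 library and 576 in the DDX24-sh2 library. It was at 64.3% of control in DDX24-sh1, a log2 ratio of −0.64 (−0.82 to −0.46), and at 83.8% in DDX24-sh2 (−0.25, −0.42 to −0.091). DDX24-sh1 was the low library, with DDX24-sh2 higher than it by 0.38 (0.20 to 0.57). Exons of SF3A2 overlap exons of PLEKHJ1 on the opposite strand over 398 bases (12.7% of SF3A2's exon bases). PLEKHJ1 had 334, 356 and 401 counts, and since the strandedness of the counting was not given, reads in the overlap cannot be told apart. The overlaps of SF3A1, SF3B2 and U2AF2 with opposite-strand genes were shorter, at 113 to 263 bases and 2.69 to 3.44% of their exon bases. Exons of DDX24 itself overlap those of OTUB2 on the opposite strand over 640 bases (7.41% of DDX24's exon bases). OTUB2 had 144, 219 and 260 counts, and reads in that overlap cannot be told apart either.

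SF3A3 (ENSG00000183431, 1:37956975-37990921, minus strand), another zinc finger subunit, was counted 1106 times in the control library, 1116 times in DDX24-sh1 and 1341 times in DDX24-sh2. Here DDX24-sh2 was the high library, at a log2 ratio of 0.20 (0.081 to 0.31), and DDX24-sh1 was at −0.087 (−0.21 to 0.034), so that the shRNA libraries differed by 0.28 (0.17 to 0.40).

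SF3A1 (ENSG00000099995, 22:30331988-30356947, minus strand), whose ubiquitin-like domain binds U1 snRNA and which holds the other SF3a subunits together, was almost level, with 1714 counts in the control, 1681 under DDX24-sh1 and 1723 under DDX24-sh2. Its log2 ratios were −0.13 (−0.23 to −0.030) and −0.073 (−0.17 to 0.024), without a difference beyond counting error between the shRNA libraries (0.055, −0.043 to 0.15).

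The genes for the first proteins on the branch point and the 3′ splice site, apart from U2AF1, lay closest to the control. U2AF2 (ENSG00000063244, 19:55654146-55674715, plus strand), the large U2AF subunit, had 6359 counts in the control, against 7039 for DDX24-sh1 and 6667 for DDX24-sh2. Its scaled levels were 103.3% and 99.1% of control, at log2 ratios of 0.047 (−0.0024 to 0.096) and −0.013 (−0.062 to 0.037). No library stood out, although the step from DDX24-sh1 to DDX24-sh2 was −0.059 (−0.11 to −0.011).

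SF1 (ENSG00000168066, 11:64764606-64778786, minus strand) reached 4421 counts in the control library, 4786 in the DDX24-sh1 library and 4464 in the DDX24-sh2 library. Its log2 ratio was 0.015 (−0.045 to 0.074) for DDX24-sh1 and −0.067 (−0.13 to −0.0064) for DDX24-sh2, with −0.081 (−0.14 to −0.022) between the shRNA libraries. Its scaled levels were 101.0% and 95.5% of control, so no library stood out for SF1 either.

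PUF60 (ENSG00000179950, 8:143816344-143829859, minus strand), a U2AF2-like protein that binds polypyrimidine tracts together with U2AF2, was counted 3761 times in the control library, 4164 times in DDX24-sh1 and 3877 times in DDX24-sh2. The log2 ratios were 0.047 (−0.017 to 0.11) and −0.037 (−0.10 to 0.028), and DDX24-sh2 was lower than DDX24-sh1 by a log2 ratio of −0.084 (−0.15 to −0.021). U2AF2, SF1 and PUF60 thus each had their highest scaled level in DDX24-sh1, by small steps, and none was 0.32 from control in either library.

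**Figure D2:**
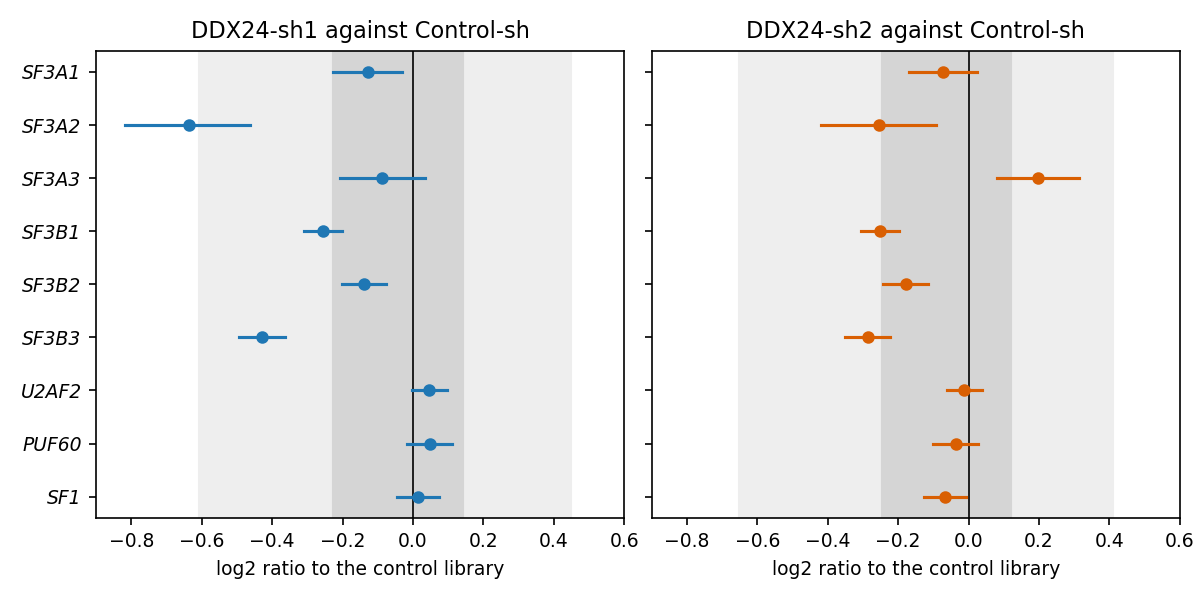
Log2 ratio to Control-sh of the 9 genes other than U2AF1 in DDX24-sh1 (left) and DDX24-sh2 (right), with exact 95% counting intervals as lines. The light band holds the middle 90% and the dark band the middle 50% of the 5717 genes of like abundance. SF3A2 in DDX24-sh1, at −0.64, is the point that lies outside the light band.

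Read against all genes, the numbers of splice-site recognition genes past a log2 ratio of 0.32 were close to the background or below it. Higher by at least that much in DDX24-sh1 was 1 of the 10, U2AF1, where 17.2% of the 13984 genes were. Lower by that size were 2 of 10, SF3A2 and SF3B3, against 20.4%. In DDX24-sh2, U2AF1 alone was higher by 0.32 (1 of 10, background 17.7%), and 0 of 10 were that much lower, where 21.3% of all genes were. Among genes averaging 10 CPM or more, the shares higher were 11.8% and 11.1%, and the shares lower 18.2% and 19.1%. The 2-fold size was passed by 1 of 10 in DDX24-sh1 (U2AF1, background 4.60%) and by 0 of 10 in DDX24-sh2 (background 5.96%). With U2AF1 summed over its copies, it was within 0.32 of control in DDX24-sh1 and lower by more than that in DDX24-sh2.

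Because a counting interval narrows with the count, intervals were compared only with the 5717 genes inside the range of mean CPM of the 9 genes other than U2AF1 (31.5 to 375.6). In DDX24-sh1 the interval lay above 0 for 0 of these 9 (background 28.4%) and below 0 for 5 of 9, namely SF3A1, SF3A2, SF3B1, SF3B2 and SF3B3 (background 38.6%). In DDX24-sh2 it lay above 0 for 1 of 9, SF3A3 (background 26.0%), and below 0 for 5 of 9, SF3A2, SF3B1, SF3B2, SF3B3 and SF1 (background 41.8%). Between the shRNA libraries it lay beyond 0 for 6 of 9, all but SF3A1, SF3B1 and SF3B2, beside 56.7% of the genes in the range.

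Both ratios of a gene share the control library, so that a high or low control count moves both the same way. For the 10 genes the median log2 ratio was −0.11 for DDX24-sh1 and −0.070 for DDX24-sh2, or −0.13 and −0.073 without U2AF1. Among genes of like abundance the medians were −0.030 and −0.054, with the middle 50% between −0.23 and 0.14 in DDX24-sh1 and between −0.25 and 0.12 in DDX24-sh2. SF3A2 in DDX24-sh1 was lower than all but 4.21% of those genes and SF3B3 lower than all but 10.6%, while in DDX24-sh2 the lowest, SF3B3, was lower than all but 21.2%.

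Levels between the genes can be compared only per length, here as CPM from the unscaled totals per kilobase of the gene length in the files. On that scale U2AF2 had the highest level of the 10 in each library, with 89.8 for the control, 93.3 for DDX24-sh1 and 90.8 for DDX24-sh2. SF1 followed with 41.9 to 43.7 and PUF60 with 40.1 to 41.9, and these neighbours almost touched. SF3B1 had 37.1 in the control and 31.3 and 31.8 under the shRNAs, SF3B2 22.5 to 24.9, and SF3B3 19.9 in the control and 14.9 and 16.6 with the shRNAs.

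The SF3a genes were at the lower end, with 14.5 to 15.7 for SF3A1, 12.8 to 15.9 for SF3A3 and 7.78 to 12.1 for SF3A2. The ranges of SF3B3 and SF3A1 overlapped, as did those of SF3A1 and SF3A3, which changed places in DDX24-sh2. U2AF1 counted alone was last in each library, at 0.110, 0.810 and 0.177.

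Gene length in the files is the union of all annotated exons, retained introns included, and for U2AF1 it is 11112 bases where the transcript U2AF1-201 has 962. Per length of such a principal transcript, U2AF2 was still first (217.5 in Control-sh) and U2AF1 counted alone still last (1.27), and SF3B2, at 84.1, moved up beside SF1 (83.0) and PUF60 (90.6). The order of SF1, PUF60 and SF3B2 therefore depends on the length chosen. In DDX24-sh1 the principal length gave 9.35 for U2AF1, 3.34 for U2AF1L5 and 12.4 for SF3A2. In the control that length gave 1.268 for U2AF1 and 13.08 for U2AF1L5, below SF3A3 at 17.49 even when added together. In DDX24-sh2 the copies had 2.039 and 6.496, also together below SF3A2 at 16.44. Per gene length in the files U2AF1L5 had 1.055, 0.2697 and 0.5241, so U2AF1 with its copy was still last in each library. Only per principal length in DDX24-sh1 did the last place depend on leaving out the copy.

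**Figure D3:**
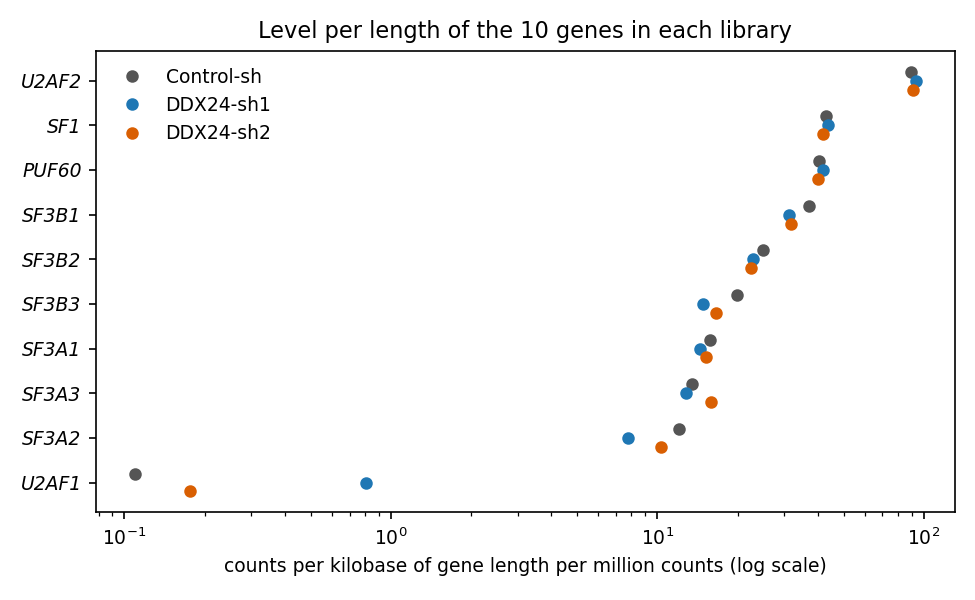
Level of the 10 genes in each library, as CPM from the unscaled totals per kilobase of gene length on a log axis, ordered by the control level. U2AF2 is highest at 89.8 to 93.3 in the 3 libraries, and U2AF1, counted without its copy, is lowest at 0.110 to 0.810.

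The other spliceosome genes were described by 6 lists, with 65 genes that all passed 1 CPM on average. The share of all genes higher by at least 0.32 was 17.2% and 17.7%, and the share lower by it 20.4% and 21.3%. Of the 9 other SF3b and U2 snRNP genes, 1 was higher and 1 lower by that size in DDX24-sh1, and 2 higher and 0 lower in DDX24-sh2, with medians of −0.097 and −0.047. The lowest was DDX46, an SF3B1-binding helicase that remodels the U2 snRNP at the branch point, with 2992, 2479 and 2723 counts in the control and the shRNA libraries in turn (log2 ratios −0.37 and −0.22). The highest was DDX42, another SF3B1-binding helicase, with 2747, 3709 and 4015 counts (0.33 and 0.47). These helicases thus stood on opposite sides of the control in both libraries, and their intervals were −0.45 to −0.29 and −0.29 to −0.14 for DDX46, and 0.26 to 0.41 and 0.40 to 0.54 for DDX42.

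Of the 13 other U2-associated and 3′ splice site factors, U2AF1L5 among them, 5 were lower (background 20.4%) and 1 higher (17.2%) by that size in DDX24-sh1, and 3 lower (21.3%) and 3 higher (17.7%) in DDX24-sh2. The medians were −0.29 for DDX24-sh1 and −0.021 for DDX24-sh2. U2AF1L5 is among the lower genes in both libraries (−1.94 and −1.02) and enters both medians. Its counts cannot be read apart from those of U2AF1. SMNDC1, a Tudor domain protein of the U2 snRNP, was low in both shRNA libraries, with 609 and 611 counts against 881 in the control (log2 ratios −0.63 and −0.61). RBM5, a splicing regulator often lost in lung cancer, was higher in both, with 351, 493 and 617 counts (0.39 and 0.73). U2AF1L4, another U2AF1-related gene, had only 50, 32 and 65 counts (−0.71, −1.43 to −0.075, and 0.29, −0.26 to 0.86).

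The U1 snRNP and 5′ splice site list, at the other end of the intron, had 4 of 10 genes lower (background 20.4%) and 0 higher (17.2%) by that size in DDX24-sh1, and 1 lower (21.3%) and 2 higher (17.7%) in DDX24-sh2. SNRPA, the U1 A protein, was low in both and the lowest by the mean of both ratios, with 1226 and 1186 counts against 1945 in the control (−0.76 and −0.79). PRPF39, a U1-associated protein, was low in DDX24-sh1 only, at 447, 273 and 498 counts (−0.81, −1.03 to −0.59, and 0.075, −0.11 to 0.26), and LUC7L3 was highest in DDX24-sh2, at 1937, 1824 and 2812 (−0.19 and 0.46). The list had a median of −0.23 for DDX24-sh1 and of 0.055 for DDX24-sh2.

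Of the 14 U5 and tri-snRNP genes, 3 were lower (background 20.4%) and 0 higher (17.2%) by that size in DDX24-sh1, and 3 lower (21.3%) and 1 higher (17.7%) in DDX24-sh2, with medians of −0.16 and −0.054. PRPF8, the core protein of the catalytic centre, had 12619 counts in the control, against 10053 for DDX24-sh1 and 8961 for DDX24-sh2 (−0.43 and −0.57). PRPF3, a U4/U6 protein, had 1101, 780 and 884 (−0.60 and −0.40), and the highest by the mean of both ratios, the helicase DDX23, had 2416, 2824 and 2905 (0.13 and 0.19).

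Of the 12 genes of the Prp19 complex and its partners, 0 were lower in either library (background 20.4% and 21.3%), 0 were higher in DDX24-sh1 (17.2%) and 1 was higher in DDX24-sh2 (17.7%), with medians of −0.087 and 0.045. AQR was their lowest at 2100, 1843 and 1879 counts (−0.29 and −0.24), and CWC15 their highest at 290, 387 and 402 (0.31 and 0.39). Of the 7 U11-U12 genes of the minor spliceosome, which shares SF3b with the major one, 2 were lower and 1 higher in DDX24-sh1, and 1 lower and 2 higher in DDX24-sh2, beside the same background shares (medians −0.23 and −0.027). SNRNP35 was higher in both shRNA libraries, with 122, 216 and 202 counts (0.72 and 0.64), and ZMAT5 was lowest by the mean of both ratios, with 165, 142 and 122 (−0.31, −0.65 to 0.016, and −0.51, −0.87 to −0.17). Beside the lists, the SF3b genes SF3B1, SF3B2 and SF3B3 had medians of −0.26 and −0.25, the SF3a genes −0.13 and −0.073, and SF1, U2AF2, U2AF1 and PUF60 0.047 and −0.025. The last medians take U2AF1 by its own counts, without U2AF1L5.

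**Figure D4:**
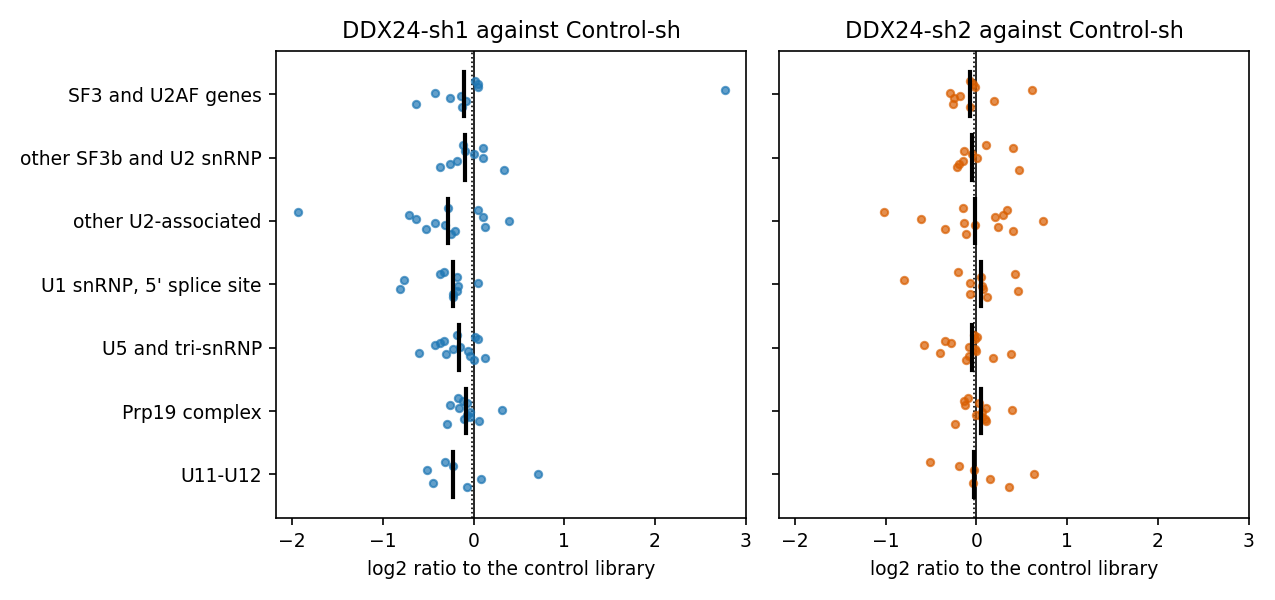
Log2 ratio to Control-sh of each gene of the SF3 and U2AF group and of the 6 other spliceosome lists in DDX24-sh1 (left) and DDX24-sh2 (right), with 1 point per gene, a black bar at the list's median and a dotted line at the median of all genes. The point of the top row at 2.77 is U2AF1, the point of the third row at −1.94 is its copy U2AF1L5, and the medians lie between −0.29 and 0.055.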

How the data were processed

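RNA was sequenced from A549 cells in 3 libraries, 1 per condition, assigned by the sample titles. All ratios were made from the gene-level counts that the authors deposited as unscaled whole numbers. The FPKM values the authors deposited beside them, counts over gene length and library size, served only as an alternative. The submitters' processing notes name Bowtie2 2.0.6, TopHat2 2.0.9, Cufflinks 2.1.1 and Cuffdiff 2.1.1 without their roles. The counter, the strandedness and the treatment of reads with several placements were not given in the sources used here. The 10 genes matched GENCODE 29 (GRCh38) in identifier, start and end.

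Counts were scaled with edgeR 4.0.16 (TMM) in R 4.3.3, and log2 ratios were made from CPM after adding a prior count of 2. Since each condition has 1 library, no test was run. Intervals are exact conditional binomial (Clopper-Pearson) 95% intervals of the counts without the prior count, whereas the printed ratios include it. At low counts the printed ratio therefore lies nearer 0 than the ratio its interval belongs to. U2AF1 in DDX24-sh1 was at 2.77 with the prior count of 2 and at 2.85 with a prior count of 0.5. Without molecular identifiers, reads are not independent molecules, and the intervals leave out variation between cultures. At 21 counts in the control the interval of U2AF1 in DDX24-sh1 spanned 2.21 to 3.60, and at 5855 counts that of SF3B1 spanned −0.31 to −0.20. The size counted was a log2 ratio of 0.32 or more. The background was the 13984 genes that averaged 1 CPM or more.

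FPKM times gene length over count was within 1% of a constant for 5.23% and 5.17% of genes in the shRNA libraries with the labels as given, for 100% with those labels exchanged, and for 100% in the control. Transcripts were compared in the GENCODE 29 sequences with Biopython 1.88. From each list, named genes were those past 1.5-fold in either shRNA library and the highest and lowest by mean ratio. The genes, the lists and the markers were chosen with earlier results of these data known, and 1 leukocyte marker is not reported here. Alternatives were DESeq2 1.42.0 size factors, total counts, a prior count of 0.5, FPKM as log2(FPKM + 0.1) under both labellings, other folds and filters, and U2AF1 summed with U2AF1L5. Leaving out U2AF1 and the principal transcript length were added after seeing the data. The ratios and counting intervals were tested on simulated counts with known changes, which held counting error only and no variation between cultures. The other steps were not tested on simulated data.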

Additional observations from a re-analysis of the deposited data

How the results depend on the processing

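DESeq2 size factors, total counts and a prior count of 0.5 left each of the 22 gene ratios within its counting interval, and all-gene medians stayed between −0.026 and 0.0029. Ratios near 0 could still change sign, as U2AF2 in DDX24-sh2 did under total counts (0.017), and so did the DDX24-sh2 medians of the U2-associated and U11-U12 lists under total counts (0.0080 and 0.0018) and among genes averaging 10 CPM or more (0.090 and 0.15). Summing U2AF1 with U2AF1L5 reversed its ratio in DDX24-sh1 to −0.12 and moved that in DDX24-sh2 to −0.75, by construction through the copy's own counts. With the FPKM labels exchanged, 21 of 22 ratios stayed within their intervals and U2AF1 in DDX24-sh1 was at 2.12, where the pseudocount bears on its low FPKM. With the FPKM labels as given, which assign the other shRNA library's values, U2AF1 was at 0.39 in DDX24-sh1 and 2.12 in DDX24-sh2, DDX24 at −1.45 and −1.72, and 4 genes changed sign in each library: SF3A3 (0.20 and −0.073), SF1 (−0.058 and 0.028), U2AF2 (−0.0034 and 0.060) and PUF60 (−0.028 and 0.060). The medians became −0.012 and −0.27 for the U2-associated factors and −0.045 for the U5 list in DDX24-sh1. They changed sign to 0.064 and −0.21 for the U1 list and to 0.054 and −0.074 for the Prp19 list. At 1.5-fold 1 gene (SF3A2) and at 2-fold 0 were lower in DDX24-sh1, and at 2-fold 0 were higher in DDX24-sh2. Without a filter on low counts the share of all genes higher by a log2 ratio of 0.32 was 27.4% and 31.3%, and among genes averaging 10 CPM or more it was 11.1% in DDX24-sh2. Per principal transcript length all 30 levels moved. No paired analysis was possible because each condition has 1 library, and for the same reason no library could be left out.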
